A study of Mus musculus with 8 samples.

Results

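The 10 genes described here encode integrin subunits expressed by microglia or by other leukocytes: Itgb2, Itgal, Itgam, Itgax, Itgav, Itgb5, Itgb1, Itga4, Itga6 and Itga9. They were picked by symbol from a table of 55471 rows, each stood on 1 row, and all 10 passed the filter on low values. The choice used no measured value as a criterion, but it was made with earlier results of these data known.

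Integrins are adhesion receptors built from an alpha and a beta subunit, and the pairing sets which ligand is bound. On leukocytes ITGB2 pairs with ITGAL, ITGAM or ITGAX, while ITGB1 pairs with ITGA4, ITGA6 or ITGA9 among many others and ITGB5 pairs with ITGAV. Cells switch integrins on from within through talin, kindlins and the small GTPase RAP1, and bound integrins signal inward through Src and Syk family kinases to the cytoskeleton. In the brain, microglia use them to touch matrix, vessels and synapses, to phagocytose, and to activate latent transforming growth factor beta.

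RNA came from microglia, the macrophages resident in the brain, of C57/Bl6 mice at postnatal day 30. The treated group had received interleukin-33 (IL-33), a cytokine of the interleukin-1 family, 4 hours earlier (replicates 1 to 4), and the control group phosphate-buffered saline (PBS) 4 hours earlier (replicates 5 to 8). Each group of 4 libraries held 2 females and 2 males, and in both groups flow cytometry after perfusion had kept Ly-6C negative, CD11b positive hippocampal cells with low CD45. CD11b is the protein of Itgam, so the sort itself required that integrin; the sources used here do not give dose, route or any pooling of animals.

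Libraries held 16827343 to 20360164 reads after IL-33 and 19183115 to 21483352 after PBS, and 7958 to 10736 genes against 10311 to 11902 had at least 10 reads. The fewest such genes, 7958, were in IL-33 replicate 4, which held 20179566 reads. The other IL-33 libraries had 8948 to 10736. Values are normalised read counts from a kit that reads transcript 3′ ends, so that a value is not scaled by gene length. Nothing in the labels says that libraries came from separate animals, and p-values therefore measure the spread between these libraries, which may be partly technical. Of 12 genes that mark microglia all were present, and their summed value was 425199 to 627011 after IL-33 and 641190 to 871219 after PBS (limma called 6 lower and 0 higher, edgeR 3 and 0, DESeq2 5 and 0). At an unadjusted p under 0.05, 10 of the 12 were lower and 0 higher, where 19.4% of all tested genes had such a p in either direction. Gpr34, P2ry12 and Sall1, named after their values were seen, had log2 fold changes of −5.10, −2.47 and −2.19 (limma adjusted p = 1.23e-08, 7.01e-07 and 6.46e-04). The most abundant, Cx3cr1, was at 197999 ± 51970 after IL-33, against 195362 ± 46104 after PBS (limma adjusted p = 0.978), and Csf1r at 111604 ± 29886, against 173692 ± 50037 (adjusted p = 0.0464, a call made in 7 of 19 alternatives and lost without IL-33 replicate 2 or 3 or PBS replicate 6, 7 or 8; SD, n = 4 each).

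Itgal rose after IL-33, whereas Itga6 and Itgb5 fell. Itgam, Itgb1, Itgb2 and Itga9 did not pass the test in either direction. Itgax, Itga4 and Itgav had higher means after IL-33 without passing it. In counts, limma called 1 member higher and 2 lower (adjusted p under 0.05 over all 13877 tested genes), where 3.06% and 2.8% of all tested genes were called in these directions and 5.85% in either. The median log2 fold change was 0.24 over the members and −0.40 over all tested genes, and the median of all tested genes was −0.08 in edgeR and −0.09 in DESeq2. IL-33 and PBS libraries did not overlap for 4 of the 10 members, 2 higher and 2 lower, where 6.26% and 7.41% of all tested genes did so in these directions and 13.7% in either. On the recovered reads edgeR also called Itgal, Itga6 and Itgb5 alone, with 5.46% of all tested genes called, while DESeq2 called these and Itgax, Itgav and Itga4, with 12% of all tested genes called. In such bulk libraries fewer cells carrying a transcript and less transcript per cell cannot be told apart.

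**Figure D1:**
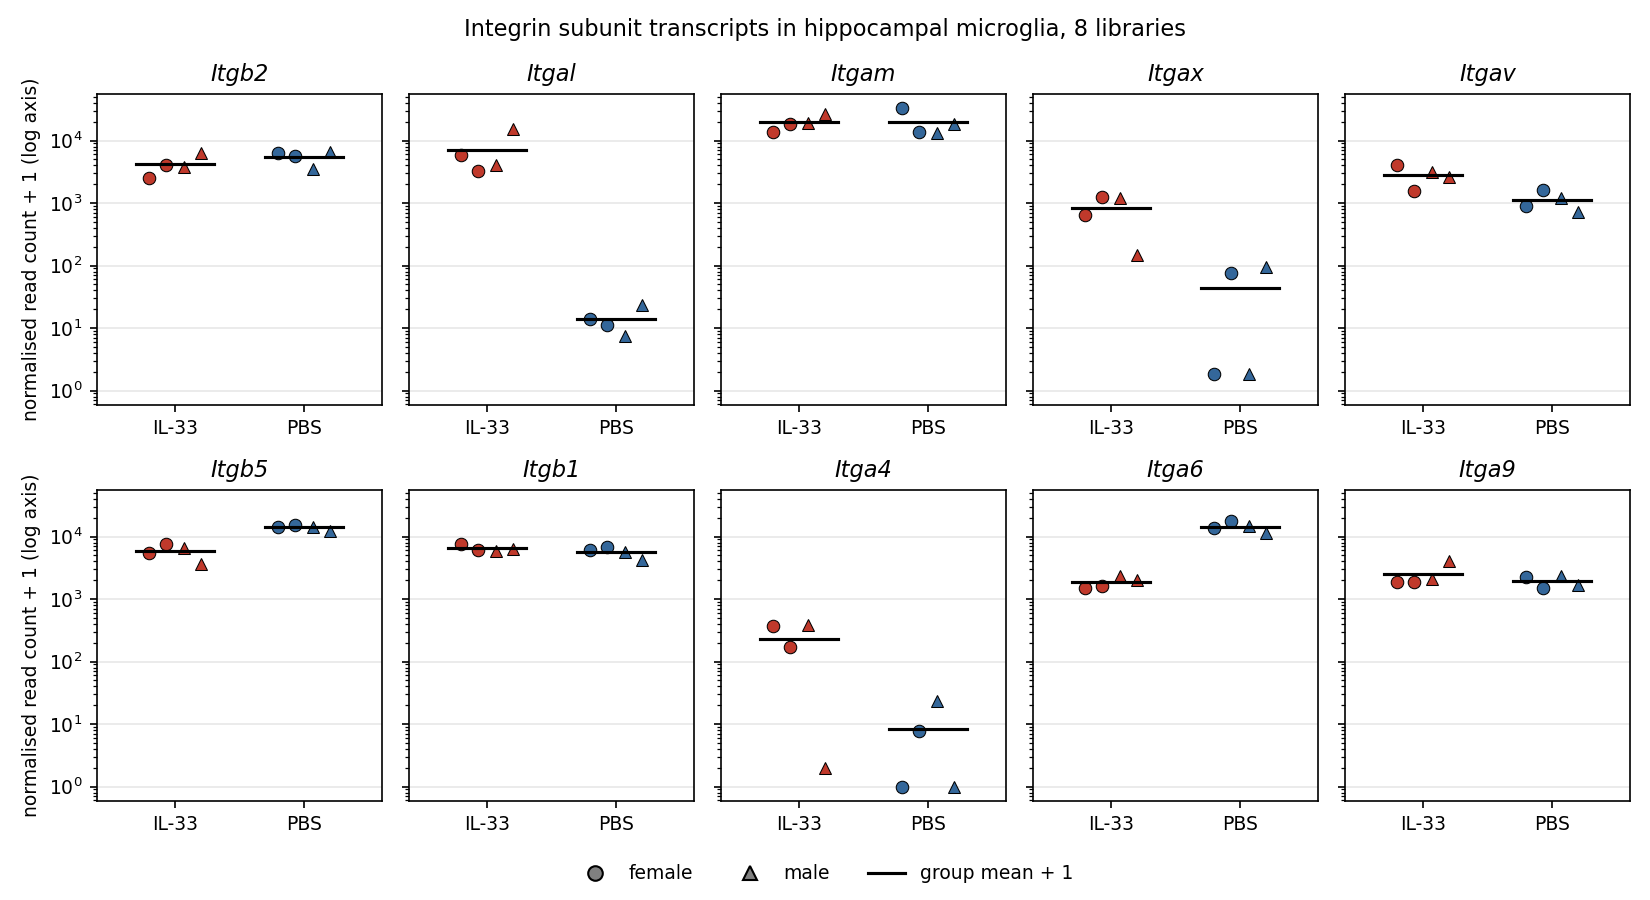
Normalised read count plus 1 on a log axis for the 10 integrin subunit genes, 1 panel per gene, IL-33 libraries in red on the left and PBS libraries in blue on the right; circles are females, triangles males, and bars are group means plus 1 (n = 4 each). Itgal, Itgax, Itga6 and Itgb5 have no overlap between the groups, and Itgal spans 3251 to 15372 after IL-33 against 6.57 to 22.0 after PBS.

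Among the alpha subunits that pair with ITGB2, Itgal stood out. It encodes CD11a, which with ITGB2 forms LFA-1, the leukocyte receptor for ICAM proteins. Its values were 5867, 3251, 4094 and 15372 in IL-33 replicates 1 to 4, against 12.7, 10.2, 6.57 and 22.0 in PBS replicates 5 to 8. Each IL-33 library was far above each PBS library, and replicate 4 lay apart from the other IL-33 libraries. The log2 fold change was 8.85 ± 0.91 (SE; 95% interval 6.93 to 10.76, limma adjusted p = 2.43e-06). The means were 7146 ± 5591 after IL-33 and 12.9 ± 6.57 after PBS (SD, n = 4 each), a ratio of 555. Without IL-33 replicate 4 the IL-33 mean was 4404 ± 1335 (SD, n = 3), the ratio 342 and the log2 fold change 8.39. The PBS values rest on 8 to 30 reads per library.

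The PBS mean of Itgal was 0.180% of its IL-33 mean, and Xist, a transcript of the female inactive X chromosome, reached 0.293% of its female mean in male libraries. Whether reads of other libraries add to the low Itgal values after PBS was not tested.

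Itgam encodes CD11b, the microglial marker on which the cells were sorted and the alpha subunit of complement receptor CR3. It measured 13728, 18686, 19114 and 26353 after IL-33, against 33648, 13816, 13434 and 18322 after PBS. The groups overlapped throughout, with the highest value in PBS replicate 5. The log2 fold change of 0.04 had a 95% interval of −0.51 to 0.60 (limma adjusted p = 0.943), and its sign turned under quantile normalization and in edgeR and DESeq2. The protein-coding gene model Gm49368 overlaps Itgam on the same strand, and how reads in their shared part were counted is not given in the sources used here; Gm49368 itself averaged 5.55 after IL-33 and 0.212 after PBS.

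Itgax encodes CD11c, known from dendritic cells and from activated or disease-associated microglia. Values of 651, 1265, 1215 and 144 after IL-33 stood against 0.847, 75.0, 0.822 and 93.8 after PBS. All IL-33 libraries exceeded all PBS libraries, by little between IL-33 replicate 4 and PBS replicate 8, while PBS replicates 5 and 7 each held 1 read. The log2 fold change of 5.63 ± 1.70 (SE; 95% interval 2.07 to 9.19) missed the threshold in limma (adjusted p = 0.0584) and in edgeR (0.0707). It passed in DESeq2 (adjusted p = 0.00372) and in limma without IL-33 replicate 4 (adjusted p = 0.0290); over 19 alternatives the adjusted p ran from 0.00372 to 0.166, with 4 of them under the threshold.

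Itgal, Itgam and Itgax lie on chromosome 7 of the mouse build GRCm38, all on the forward strand, Itgal at 127296260 to 127335138, Itgam at 128062640 to 128118491 and Itgax beginning 11056 bases after the end of Itgam. The close pair had unlike levels in both groups. Their promoters, from 250 bases before the transcript start to 50 bases after it, are shown because these neighbours differ in level. Sequences are from RefSeq on GRCm38.p6 and were used for 7 of the 10 members; those of Itgal, Itga6 and Itgb2 were not used here. Capitals mark the PU.1 core GAGGAAG and the AP-1 site TGANTCA, searched on both strands; PU.1 is the Ets factor of myeloid cells and AP-1 the Fos and Jun dimer.
Itgam (chr7:128062390-128062689, forward strand): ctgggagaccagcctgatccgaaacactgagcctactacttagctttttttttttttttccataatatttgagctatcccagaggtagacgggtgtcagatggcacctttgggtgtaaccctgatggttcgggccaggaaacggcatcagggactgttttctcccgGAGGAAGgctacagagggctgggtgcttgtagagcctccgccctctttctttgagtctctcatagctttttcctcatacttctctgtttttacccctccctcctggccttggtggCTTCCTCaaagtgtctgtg
Itgax (chr7:128129300-128129599, forward strand): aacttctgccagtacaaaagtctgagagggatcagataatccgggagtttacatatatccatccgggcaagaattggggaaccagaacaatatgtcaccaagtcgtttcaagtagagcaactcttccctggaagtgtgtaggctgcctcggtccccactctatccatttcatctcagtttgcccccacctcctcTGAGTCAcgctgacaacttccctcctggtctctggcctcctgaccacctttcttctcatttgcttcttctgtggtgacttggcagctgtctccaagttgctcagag
The Itgam window held the PU.1 core at 2 places, 84 bases before the start and, on the reverse strand, 31 bases after it, and the Itgax window held the AP-1 site 56 bases before the start. The PU.1 core was present in 13.6% and the AP-1 site in 7.81% of 32851 mouse promoters of the same length. Each of these 2 motifs was present in 2 of the 7 member promoters, the PU.1 core also in that of Itgav and the AP-1 site also in that of Itga9. The NF-κB consensus was found in 4.51% of those promoters and in 0 of the 7 member promoters. For Itga9 the window (118711442 to 118711741 on chromosome 9) lies inside the annotated gene, which begins at 118606690 on the forward strand. Its AP-1 match is thus not at the annotated start of the gene.

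Itgb2 encodes CD18, the beta chain that these alpha subunits share. It measured 2486, 4106, 3810 and 6385 after IL-33, against 6440, 5636, 3492 and 6597 after PBS. The ranges overlapped, with the lowest library in the IL-33 group. Its log2 fold change was −0.44 ± 0.33 (SE; 95% interval −1.14 to 0.26, limma adjusted p = 0.50).

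With Itgal high, the make-up of the alpha transcripts for ITGB2 differed between the groups. Itgal made up 29.0%, 14.0%, 16.8% and 36.7% of the summed Itgal, Itgam and Itgax values after IL-33, against 0.0377%, 0.0735%, 0.0489% and 0.119% after PBS. Itgam took 72.4 ± 8.39% after IL-33 and 99.7 ± 0.331% after PBS, and Itgax 3.50 ± 2.31% after IL-33 and 0.264 ± 0.300% after PBS (SD, n = 4 each). The sum of the 3 transcripts was 27435 ± 9781 after IL-33 and 19861 ± 9473 after PBS. Set against Itgb2 in the same library, that sum was 8.14, 5.65, 6.41 and 6.56 times Itgb2 after IL-33, and 5.23, 2.47, 3.85 and 2.79 times after PBS. These shares describe transcripts and were not tested.

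**Figure D2:**
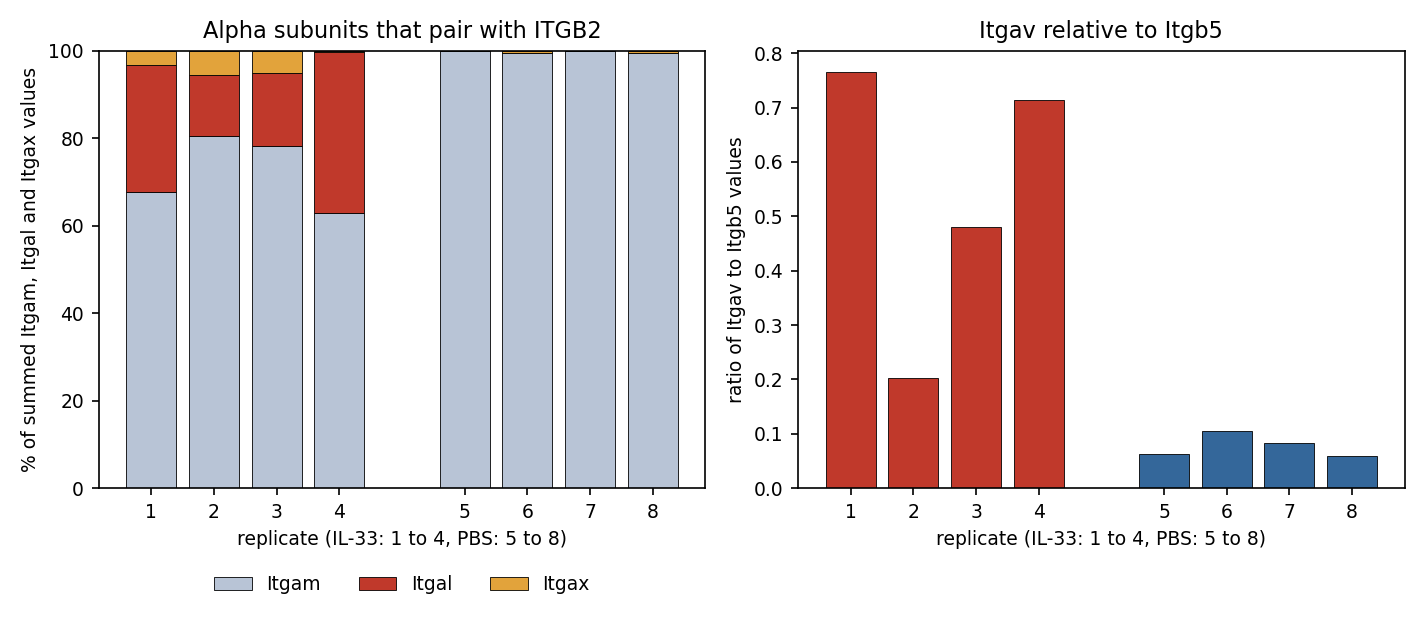
Left, percentage of the summed Itgam, Itgal and Itgax values taken by each gene in each library (stacked bars, replicates 1 to 4 after IL-33 and 5 to 8 after PBS); right, ratio of the Itgav value to the Itgb5 value in the same libraries. Itgal takes 14.0% to 36.7% after IL-33 and at most 0.119% after PBS, and the Itgav to Itgb5 ratio is 0.203 to 0.766 after IL-33 and 0.0601 to 0.106 after PBS.

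Markers of other leukocytes are given here because lymphocytes, dendritic cells and monocytes also express Itgal, Itgax or Itga4. Of 8 neutrophil markers 7 had no read in any library, and the list summed to at most 0.987 after IL-33 and 0 after PBS. Of 9 T and NK cell markers 6 had no read in any library, Cd3e, Lck and Nkg7 among them. The summed value of that list was 0, 0, 1.97 and 738 in IL-33 replicates 1 to 4 and at most 1.46 after PBS. In IL-33 replicate 4 it came from Klrb1c (671) and Trac (66.9); that library also had the highest Itgal, and the part of such cells in it was not tested.

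Monocyte markers summed to 246 to 1632 after IL-33 and 21.3 to 295 after PBS, led by Ms4a4c (306 ± 287 after IL-33, 33.8 ± 66.4 after PBS) and Vcan (254 ± 188 after IL-33, 0.205 ± 0.411 after PBS; SD, n = 4 each); Ly6c2 had no read in any IL-33 library and in 3 of 4 PBS libraries. Dendritic cell markers summed to 234 to 766 after IL-33 and 59.1 to 510 after PBS, with Clec9a and Cd209a at 0 in all libraries and Xcr1 at 336 ± 327 after IL-33 and 0.792 ± 0.920 after PBS. Among tested monocyte markers, log2 fold changes were 6.05 for Vcan, 5.71 for Ms4a4c and 1.54 for Ccr2, but −3.56 for Plac8 and −0.77 for S100a4. Xcr1 (5.76) was the only tested dendritic cell marker above 0, with Ccr9, Flt3 and Zbtb46 at −1.42, −2.02 and −1.07. Vcan and Xcr1 had no read in IL-33 replicate 4. The median was 1.54 for the monocyte list and −1.25 for the dendritic cell list. Limma called 0 of the 5 tested monocyte markers and 0 of the 4 tested dendritic cell markers. At an unadjusted p under 0.05, 2 and 1 were higher, where 19.4% of all tested genes had such a p in either direction. In each of these 2 lists edgeR and DESeq2 each called 1 higher. B cell markers summed to 1810 to 4779 after IL-33 and 267 to 847 after PBS. Nearly all of that sum was Cd79b (3210 ± 1337 after IL-33, 493 ± 262 after PBS, limma adjusted p = 0.00297), while Ms4a1 and Pax5, which also define B cells, had no read in any library. The part of these cells in the integrin results was not tested.

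Border-associated macrophage markers summed to 2276 to 2839 after IL-33 and 4282 to 7877 after PBS, of which Stab1 alone made up 2340 ± 284 after IL-33 and 5750 ± 1560 after PBS (SD, n = 4 each). Stab1 was the 1 called gene of 6 tested (log2 fold change −1.26, limma adjusted p = 0.0224), where 2.8% of all tested genes were called lower. The call of Stab1 was made in 16 of 19 alternatives and lost without PBS replicate 5 or 8 and without the variance trend (adjusted p up to 0.233). Pf4 and Cd163, named after their values were seen, had log2 fold changes of 2.03 and 1.21 (limma adjusted p = 0.627 and 0.771). Both were at 0 in IL-33 replicates 3 and 4. Mrc1, F13a1 and Lyve1 had −3.77, −0.82 and −0.35 (adjusted p = 0.357, 0.873 and 0.945), and the list median was −0.58. Sums after IL-33 and after PBS were 161 to 594 and 108 to 699 for endothelial cells and pericytes, 5567 to 8508 and 3079 to 5588 for astrocytes, 3439 to 5982 and 3283 to 4771 for oligodendrocytes, and 338 to 1887 and 219 to 1019 for neurons.

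ITGAV binds matrix proteins and latent transforming growth factor beta through their RGD motif, and ITGB5 is a partner with which it binds vitronectin. Itgb5 measured 5389, 7559, 6620 and 3640 after IL-33, against 14491, 15434, 14477 and 12136 after PBS. Every IL-33 library was below every PBS library, and IL-33 replicate 4 was the lowest. The log2 fold change of Itgb5 was −1.33 ± 0.25 (SE; 95% interval −1.86 to −0.80, limma adjusted p = 0.00256). Its call was lost when limma was run without a variance trend (adjusted p = 0.219) and held in the other 18 of 19 alternatives, whose lowest adjusted p was 5.57e-05.

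Itgav measured 4129, 1538, 3178 and 2602 after IL-33, against 909, 1635, 1202 and 729 after PBS. IL-33 replicate 2 lay within the PBS range and the other IL-33 libraries above it. For Itgav the log2 fold change of 1.33 ± 0.45 (SE; 95% interval 0.39 to 2.28) did not pass in limma (adjusted p = 0.0949) or edgeR (0.0744), and passed in DESeq2 (adjusted p = 0.0228); the range over 19 alternatives was 0.0228 to 0.284. Within a library the ratio of Itgav to Itgb5 was 0.766, 0.203, 0.480 and 0.715 after IL-33, and 0.0627, 0.106, 0.0830 and 0.0601 after PBS. All ratios after IL-33 were above all ratios after PBS.

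The promoter of Itgb5 is shown as that of the one called member whose sequence was held (RefSeq, GRCm38.p6, forward strand of chromosome 16). It has no capitals, since none of the 3 motifs matched in it.
Itgb5 (chr16:33829415-33829714, forward strand): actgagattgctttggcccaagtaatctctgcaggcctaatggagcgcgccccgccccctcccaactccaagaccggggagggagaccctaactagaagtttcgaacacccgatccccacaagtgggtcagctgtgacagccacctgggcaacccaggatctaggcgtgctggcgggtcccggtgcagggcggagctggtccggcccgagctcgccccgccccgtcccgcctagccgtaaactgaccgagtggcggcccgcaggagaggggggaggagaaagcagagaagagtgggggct

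In the ITGB1 group, Itga6 had the deepest fall. It encodes CD49f, a laminin receptor subunit. Its values were 1507, 1620, 2338 and 1984 after IL-33, against 13474, 17437, 14918 and 11353 after PBS. The highest IL-33 library was far below the lowest PBS library, and neither group had a library that stood apart. Its log2 fold change was −2.94 ± 0.28 (SE; 95% interval −3.54 to −2.35, limma adjusted p = 9.40e-07), and PBS libraries averaged 7.68 times the IL-33 mean. The call held in all 19 alternatives, with log2 fold changes from −3.18 to −2.84.

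Itgb1 encodes CD29, the most widely shared beta subunit. Its values were 7523, 6190, 5828 and 6281 after IL-33, against 6203, 6801, 5735 and 4268 after PBS. The groups overlapped, and Itgb1 had the smallest spread of all members after IL-33, with an SD of 11.4% of the mean. Its log2 fold change was 0.18 ± 0.26 (SE; 95% interval −0.37 to 0.73, limma adjusted p = 0.714), and its sign turned under quantile normalization.

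Itga4 encodes CD49d, the subunit of VLA-4 that binds VCAM1 and fibronectin. Its values were 371, 170, 389 and 0.955 after IL-33, against 0, 6.82, 22.2 and 0 after PBS. IL-33 replicates 1 to 3 were above all PBS libraries, while replicate 4 held 1 read. That replicate was also the library with the fewest genes of at least 10 reads (7958). Whether this bears on its low Itga4 was not tested. For Itga4 the log2 fold change of 4.51 ± 2.35 (SE; 95% interval −0.41 to 9.43) did not pass in limma (adjusted p = 0.309) or edgeR (0.234), and passed narrowly in DESeq2 (adjusted p = 0.0436; range over 19 alternatives 0.0436 to 0.471). Without IL-33 replicate 4 it was 6.31 (adjusted p = 0.110). A count of 0 in PBS replicates 5 and 8 allows up to 3 counts, or at most 2.54 and 2.20 on the normalised scale, for counting error only.

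Itga9, a receptor subunit for tenascin-C and osteopontin, measured 1874, 1906, 2075 and 4137 after IL-33, against 2258, 1482, 2299 and 1697 after PBS. IL-33 replicate 4 was high and the other IL-33 libraries lay within the PBS range. In limma its log2 fold change was 0.31 ± 0.40 (SE; 95% interval −0.53 to 1.15, limma adjusted p = 0.678). Relative to Itga9, Itga6 was 0.804, 0.850, 1.13 and 0.480 times as high after IL-33, and 5.97, 11.8, 6.49 and 6.69 times as high after PBS.

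**Figure D3:**
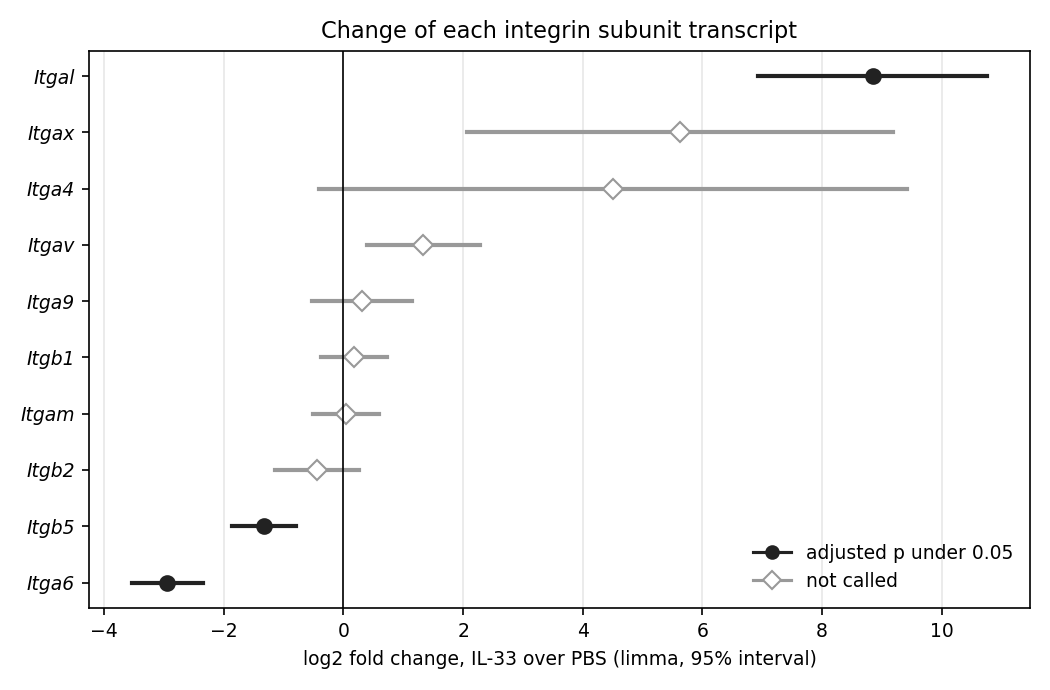
Log2 fold change of each integrin subunit transcript, IL-33 over PBS, with its 95% interval from limma (n = 4 each); filled circles passed an adjusted p under 0.05 and open diamonds did not. Itgal lies at 8.85, Itgb5 at −1.33 and Itga6 at −2.94, while the intervals of Itgax and Itgav lie above 0 without passing the adjustment.

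The order of the 10 transcripts, by mean normalised count from 3′ ends, differed between the groups. After IL-33 it ran Itgam, Itgal, Itgb1, Itgb5, Itgb2, Itgav, Itga9, Itga6, Itgax and Itga4. Neighbours in that order overlapped between libraries in every case but Itga6 and Itgax, so the order within the middle of the list is not fixed by these libraries. After PBS it ran Itgam, Itga6, Itgb5, Itgb1, Itgb2, Itga9, Itgav, Itgax, Itgal and Itga4. There the libraries of Itgb5 and Itgb1, of Itgb2 and Itga9, and of Itgav and Itgax did not overlap. Itgal thus moved to rank 2 after IL-33, against rank 9 after PBS, and Itga6 to rank 8, against rank 2. Rank 2 of Itgal rests on IL-33 replicate 4, the only 1 of 4 libraries with Itgal above Itgb1, and without that replicate Itgal was at rank 4, with a mean of 4404. Among all tested genes Itgal stood above 97.4% after IL-33 and above 7.96% after PBS. Together the 10 members took 0.284 ± 0.0432% of the values of a library after IL-33 and 0.386 ± 0.0619% after PBS (SD, n = 4 each).

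The effect of IL-33 was also set side by side in females and males, with 2 libraries in each cell. Itgal had log2 fold changes of 8.46 in females and 9.23 in males, Itga6 of −3.29 and −2.59, and Itgb5 of −1.23 and −1.43. The difference between the sexes, tested as an interaction, passed for 0 of the 10 members in limma and for 0 in edgeR, and 0 had an unadjusted p under 0.05 in either, where 5.83% of all tested genes had one in limma. The widest uncertainty was that of Itga4, whose effect in females minus that in males was 3.98 ± 4.47 (SE). With an SE of that size a difference of this order was not detectable.

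The genes with the pattern most like that of Itgal across the 8 libraries, among 3115 other genes with a mean of at least 1000, were Nrp2 (Pearson r of log2 values 0.995), Fam129a (0.993) and Ehd1 (0.992). Nrp2 encodes a semaphorin and VEGF co-receptor, and its values were 11650 ± 2811 after IL-33 and 1798 ± 294 after PBS (SD, n = 4 each). Ehd1 encodes a protein of endosomal recycling and measured 12486 ± 3298 after IL-33, against 43.0 ± 40.9 after PBS. Those most like Itga6 were Mtus1 (0.997), Abca9 (0.995) and the RNA-binding protein gene Qk (0.992). Qk measured 3426 ± 436 after IL-33, against 24160 ± 2448 after PBS, and Abca9, an ABC transporter gene, at 1252 ± 374 and 9118 ± 1744. With 2 groups far apart, such r values mostly follow the difference between the groups that the 8 libraries share.

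In the genome, the nearest tested genes on either side of the members, 18 in all that are no member, included 1 called higher and 2 called lower, where 3.06% and 2.8% of all tested genes were called in these directions. These were Heg1 beside Itgb5 (log2 fold change 8.50, limma adjusted p = 3.15e-04), Pdk1 beside Itga6 (−3.39, adjusted p = 0.0218) and Nrp1 beside Itgb1 (−4.83, adjusted p = 1.19e-04). Pdk1, a kinase that restrains pyruvate dehydrogenase, lies 14808 bases from Itga6. The neighbours of Itgal, Sephs2 and Zfp768, were not called (log2 fold changes −0.04 and 0.81). Opposite-strand gene models overlap Itgav, Itga4, Itga6 and Itga9, and whether counting used the strand is not given in the sources used here. Of these the most abundant was Gm2415 over Itga9, at 0 after IL-33 and 77.2 after PBS.

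Around the members, 6 lists held 129 further genes of integrin function, of which 89 were tested and 16 called, 11 higher and 5 lower. That is 18%, where 5.85% of all tested genes were called, 3.06% higher and 2.8% lower. Of all tested genes 19.4% had an unadjusted p under 0.05, and their median log2 fold change was −0.40. The lists were chosen with earlier results known, and their counts describe these genes alone.

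Of 17 other integrin subunits 10 had no read in any library and 4 were tested. Limma, edgeR and DESeq2 called 0 of them, with 1 lower at an unadjusted p under 0.05. That one was Itgb3, which encodes another partner of ITGAV, at 267 ± 203 after IL-33 and 1180 ± 606 after PBS (SD, n = 4 each). Its log2 fold change was −3.03 (limma adjusted p = 0.122). Itga5, the fibronectin receptor subunit, measured 291 ± 87.8 after IL-33, against 202 ± 165 after PBS (adjusted p = 0.603). Itgb8, which activates transforming growth factor beta, and Itgb7 and Itgad, relatives of the leukocyte subunits, had no read in any library.

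Among intracellular activators of integrins, 1 of 15 tested genes was called higher and 3 lower, with a median log2 fold change of −0.24. Of all tested genes 3.06% and 2.8% were called in these directions. Without PBS replicate 5, 6, 7 or 8 the lower calls numbered 1, 1, 1 and 0, and the higher call held each time. Fyb, an adaptor that links SKAP proteins to integrin activation, rose to 22345 ± 2063 after IL-33, against 6855 ± 1647 after PBS (SD, n = 4 each; log2 fold change 1.73, limma adjusted p = 3.09e-05). Tln2, the less widespread talin, fell to 21.7 ± 22.0, against 1090 ± 263 (−6.44, adjusted p = 0.00685). Rasgrp3, an exchange factor for RAP1 and RAS, fell to 1236 ± 597, against 4119 ± 853 (−1.85, adjusted p = 0.0117). Rassf5, the RAP1 effector RAPL that binds the ITGAL chain, fell to 576 ± 131, against 2010 ± 662 (−1.77, adjusted p = 0.0460), a call made in 8 of 19 alternatives. The calls of Tln2 and Rasgrp3 were each made in 16 of 19. Tln1, the main talin of leukocytes, and Fermt3, their kindlin, were named after their values were seen. Tln1 measured 7027 ± 2390 after IL-33, against 6530 ± 1159 after PBS (adjusted p = 0.927), and Fermt3 at 2034 ± 1067 and 2308 ± 826 (adjusted p = 0.784).

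Of 7 tested inhibitors of integrin activation limma and edgeR called 0 and DESeq2 called 1 lower, and 2 were lower at an unadjusted p under 0.05, where 19.4% of all tested genes had such a p in either direction. Sipa1, which switches RAP1 off, measured 2274 ± 1060 after IL-33, against 4679 ± 1251 after PBS (limma adjusted p = 0.120), and the adaptor gene Dok1 at 2371 ± 764 and 1351 ± 415 (adjusted p = 0.319; SD, n = 4 each).

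Kinases and adaptors downstream of bound integrins, the list with the most tested genes, held most of the rises. Of 29 tested genes 7 were called higher and 1 lower, where 3.06% and 2.8% of all tested genes were called in these directions. Without the variance trend these calls numbered 3 and 0, and without PBS replicate 5 or 8 they numbered 6 and 0. The list median was −0.10, against −0.40 for all tested genes. Vasp, which promotes actin filament growth, rose to 10868 ± 1360 after IL-33, against 1367 ± 153 after PBS (SD, n = 4 each; log2 fold change 2.99, limma adjusted p = 1.41e-06). Of the Src family kinases that act below ITGB2 integrins in myeloid cells, Fgr rose to 1606 ± 674, against 50.4 ± 56.0 (6.37, adjusted p = 0.00698). Lyn rose to 53419 ± 4805, against 13484 ± 3968 (2.03, adjusted p = 1.24e-06). Vav3, a guanine nucleotide exchange factor, had 318, 397, 32.6 and 791 in IL-33 replicates 1 to 4 and at most 1 read in any PBS library (limma adjusted p = 0.0351), and this call was made in 10 of 19 alternatives and lost without any 1 library other than IL-33 replicate 3. Lyn and further called genes of the list lie outside the rule for named genes: Vav1 and the Fc receptor chain gene Fcer1g were higher (log2 fold changes 1.36 and 1.14), and Lims1, a partner of integrin-linked kinase, was lower (−1.96, adjusted p = 0.0179). Syk measured 3447 ± 827 after IL-33, against 2372 ± 666 after PBS (adjusted p = 0.422), and its adaptor Tyrobp at 38361 ± 5762 and 34668 ± 5730 (adjusted p = 0.625), both named after their values were seen.

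Of 19 tested integrin ligands limma called 3 higher and 0 lower, where 3.06% and 2.8% of all tested genes were called in these directions. At an unadjusted p under 0.05, 4 were higher and 1 lower, where 19.4% of all tested genes had such a p in either direction. In edgeR 3 were called higher and 0 lower, and in DESeq2 4 and 0. The list median was −1.75, where that of all tested genes was −0.40. Lama4, Lamb1, Nid1, Vwf and Emilin1 had 0 in all IL-33 libraries and means of at most 70.3 after PBS, so this median rests partly on sparse genes. Each of the 3 genes that limma called higher is a ligand of a member. Icam1, the ligand of ITGAL with ITGB2, rose to 2288 ± 1207 after IL-33, against 454 ± 155 after PBS (SD, n = 4 each; log2 fold change 2.16, limma adjusted p = 0.0471), with 590 in IL-33 replicate 4 and 2386 or more in the other IL-33 libraries. The Icam1 call was made in 9 of 19 alternatives and lost without any 1 library other than IL-33 replicate 4, with adjusted p up to 0.187. Vcam1, the ligand of ITGA4 with ITGB1, rose to 5403 ± 1612, against 172 ± 46.4 (4.97, adjusted p = 2.99e-06). C3, whose cleavage product iC3b is bound by ITGAM and ITGAX, had 947, 726, 829 and 186 in IL-33 replicates 1 to 4 and at most 2.20 in any PBS library (adjusted p = 0.0117).

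Among 15 tested membrane partners of integrins, limma called 1 lower and 0 higher, where 2.8% and 3.06% of all tested genes were called in these directions. At an unadjusted p under 0.05, 1 was higher and 2 lower, and edgeR and DESeq2 each called 1 higher. The list median was −0.08. Sirpa, the receptor for the integrin-associated protein CD47, fell to 11666 ± 4582 after IL-33, against 30237 ± 2953 after PBS (SD, n = 4 each; log2 fold change −1.44, limma adjusted p = 4.16e-04).

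**Figure D4:**
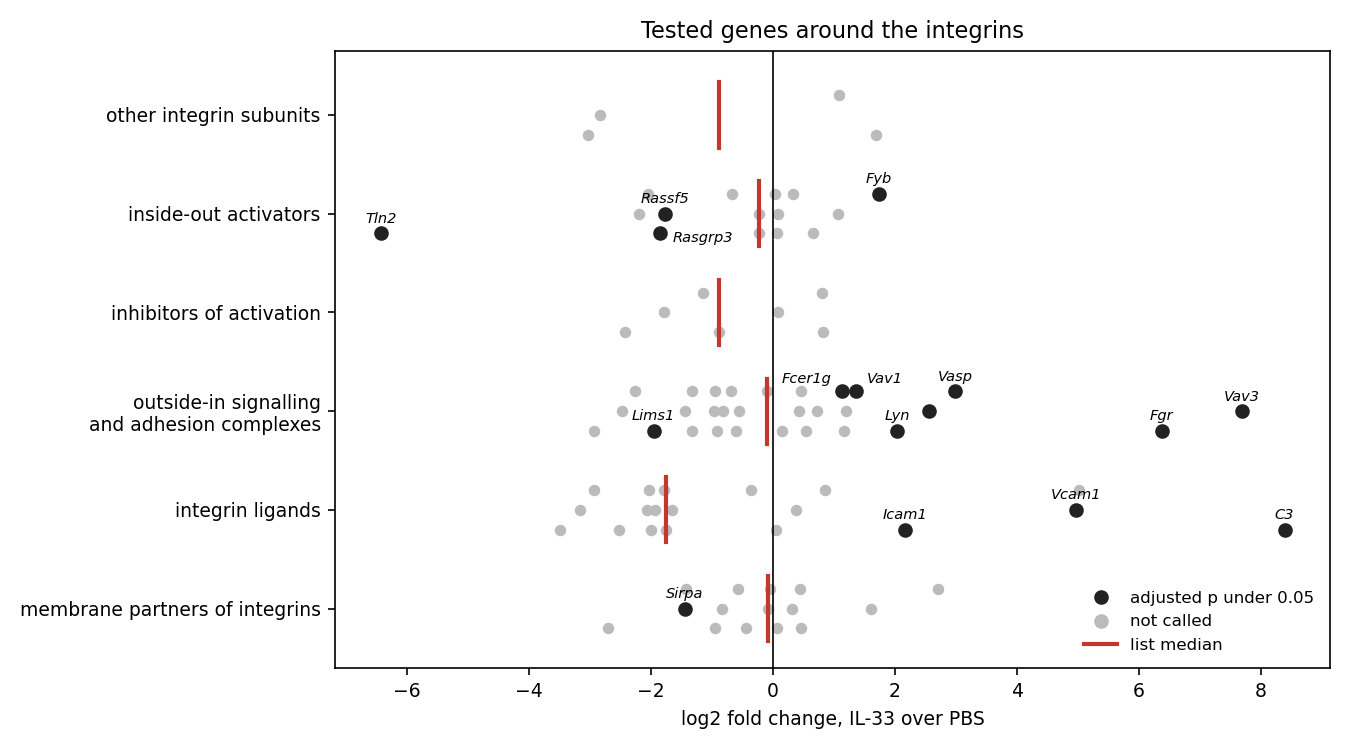
Log2 fold change, IL-33 over PBS, of each tested gene in the 6 lists around the integrins; dark points passed an adjusted p under 0.05 in limma, those described in the text carry their gene name, grey points did not, and red bars are list medians. Rises lie mostly in the list of outside-in signalling, which has the most tested genes, with 7 of 29. The list medians run from −1.75 to −0.08, where the median of all tested genes was −0.40. The lowest, that of the integrin ligands, rests partly on sparse genes.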

How the data were processed

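Gene values of 8 libraries were made with the QuantSeq FWD 3′ kit, per the labels. The deposited signal is named normalized counts in the file name; dividing by the smallest step of each library gave whole reads throughout (100% of values, tolerance 0.01 read). Per the submitters' processing notes, the tools were HTSeq 0.9.0, STAR 2.5.4b, FastQC and DESeq2 1.24.0, and the builds GRCm38 and mm10, with no roles given. Strand use, treatment of multiply matching reads and removal of duplicates were not given by the sources used here, and intervals or limits from counts cover counting error only. Coordinates came from GENCODE M21 on GRCm38, which held 55230 of 55471 identifiers.

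IL-33 was compared with PBS in limma 3.58.1 (R 4.3.3) on log2(value + 1) with a variance trend, two-sided, over 13877 genes with a mean of at least 10. Adjusted p-values are Benjamini-Hochberg over these genes, called under 0.05. The added 1 by itself understates changes of low genes. Fold changes are on that scale and can lie below or above those from recovered reads. The log2 fold change of Itgax was 5.63 in limma, 4.28 in edgeR and 4.27 in DESeq2. That of Itga4 was 4.51, 5.00 and 5.01. The interaction with sex used a mean per treatment and sex. Alternatives used edgeR 4.0.16 and DESeq2 1.42.0 on recovered reads, and other pseudocounts, filters, scalings, thresholds and left-out libraries; scripts were tested on simulated data. Named genes were all members, up to 4 called genes per list by size of change (the 2 most abundant where none was called), the 2 most abundant of each marker list (some given only within the sum of their list) and the 3 genes most like the largest rise and fall. Members and lists were chosen with earlier results of these data known. Some genes that this rule names are not reported here. All columns belonged to the 8 libraries.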

Additional observations from a re-analysis of the deposited data

Results flagged for a closer look

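In 76 groups of 4 libraries checked for a single distant library, 7 were found, and chance gives about 1 in 20 for normally distributed values. Itga9 was at 4137 in IL-33 replicate 4, far above the other IL-33 libraries. That library was also alone in the T and NK cell markers (738) and highest in the neuron markers (1887). The other cases were the T and NK cell markers in PBS replicate 8 (1.46), the neutrophil markers in IL-33 replicate 3 (0.987) and Vav3 in PBS replicate 6 (0.852), all at 2 reads or fewer, and Vasp in PBS replicate 5 (1137), the lowest of its group. In the cases at 2 reads or fewer every other library of the group was at 0, so the rate of 1 in 20 does not apply to them. No explanation of these values was tested.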

How the results depend on the processing

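Calls of Itgal and Itga6 held in all 19 alternatives and that of Itgb5 in 18; without the variance trend Itgb5 kept −1.33 and missed the threshold, leaving 1 member lower. Members called higher numbered 2 with a pseudocount of 5 (Itgax 4.78), with quantile normalization (Itgax 6.63) and without IL-33 replicate 4, and 4 in DESeq2 (Itgax 4.27, Itgav 1.36, Itga4 5.01); the fits leaving out 1 library gave 1 to 2, and Itgax 4.71 to 6.61. The median over all genes shifted by 0.29 under quantile normalization, 0.32 in edgeR, 0.31 in DESeq2 and 0.28 without IL-33 replicates 3 and 4. Signs turned for Itgam (−0.28 with quantile normalization, −0.0245 in edgeR, −0.0244 in DESeq2, −0.20 without IL-33 replicates 3 and 4, and −0.11 to 0.33 leaving out 1 library), for Itgb1 (−0.042, quantile) and for Itga9 (−0.0080 without IL-33 replicates 3 and 4), none of them called. The female minus male differences leaving out 1 library ran from −1.73 to 0.18 for Itgal, −1.59 to 4.11 for Itgax, −1.28 to 0.14 for Itgav and −0.23 to 0.64 for Itgb5. Over all genes, calls were 424 higher and 388 lower. They were 204 lower without a filter, 175 higher and 238 lower without the trend, 790 and 877 in DESeq2, 228 and 149 at an adjusted p under 0.01, and 153 to 531 lower leaving out 1 library (185, 153, 176 and 173 without PBS replicates 5, 6, 7 and 8). The 16 pathway calls became 8 lower with quantile normalization, 5 higher and 1 lower without the trend, 2 lower at an adjusted p under 0.01, and 1 to 6 lower leaving out 1 library (2, 3, 3 and 1 without PBS replicates 5, 6, 7 and 8). The cause of these shifts was not tested. No paired analysis was possible because the groups share no replicate number. Low transcripts such as Itga4 and Itgax after PBS rest on 0 to 128 reads per library, which limits what these libraries can show.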
